A study of Mus musculus with 32 samples.

Results

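Interferon response genes were followed in 2 organs, liver and spleen, of cloned mice obtained by nuclear transfer. They were chosen by symbol: receptors of interferon alpha, beta and gamma, the interferons themselves, cytosolic RNA sensors of the RIG-I type, the Stat and Irf families, and induced genes of the Ifi, Ifit, Ifitm, Isg, Oas, Gbp, Usp18, Mx and Trim families. The rule found 38 genes on 45 probes, among 9026 named genes. There were 3 receptors (Ifnar2, Ifngr1 and Ifngr2), 1 sensor (Dhx58), 14 genes of the Irf and Stat group and 20 effectors, and 0 interferon genes. Irf2bp1 (an Irf2 binding protein), Isg20l2 and Ifitm10 entered by their names and are not established as interferon induced. Isg15, Ifit1, Mx1, Ifih1, Gbp2, Ifnar1 and Ifng were not analysed here.

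Each array set the RNA of 1 clone against a pool of conventionally bred animals of the same genotype. The groups were wildtype (wt) clone liver against a wildtype pool, wildtype clone spleen against a wildtype pool, Dll1 clone liver against a pool labelled Dll1 het, and Dll1 clone spleen against a pool labelled Dll1 het. Dll1 encodes a ligand of Notch receptors. The labels name the mutant clones only as Dll1 cloned, and heterozygosity is stated for their pool alone. Clones and pool animals were male, of strain 129/SvJ and 18 to 19 weeks old. There were 4 clones per genotype, which gave both organs, and each clone and organ had 2 arrays with the dyes swapped, 32 arrays in all. A pool is 1 RNA mixture for a whole group, so that its own error enters every ratio of the group: the labelling protocol gives 6 control animals, and the labels list 4 animals per pool. Ratios carry no level, so the identity of either organ was not checked against its markers.

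Interferons are secreted by cells that sense foreign nucleic acid, and they act through receptors that activate Jak kinases and Stat proteins. Type I interferons lead to a complex with Stat2 and Irf9 that binds the interferon-stimulated response element, and interferon gamma acts through the gamma-activated site. Their targets include enzymes that degrade RNA, membrane proteins that block virus entry, and feedback inhibitors such as Usp18. In spleen these genes are prominent in leukocytes, and in liver both hepatocytes and resident macrophages respond.

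Promoter windows show how far the genes share the DNA elements of the pathway. RefSeq windows of build GRCm38.p6, from 250 bases before to 50 bases after a start site, were found for 32 of the 38 genes, in 42 windows. No window was used for Dhx58, Gbp8, Ifi27, Ifi27l2a, Oas2 and Usp18. The core of the response element, searched as GAAANNGAA on both strands, occurred in 9 of the 32 genes (28.1%) and in 9.76% of all 27025 genes of the table. The gamma-activated site, searched as TTCNNNGAA, which reads the same on both strands, also occurred in 9 of the 32 genes (28.1%), against 9.55% of all genes. Matches of the 2 patterns can overlap. The bases before the start site are printed for the genes on which the results turn: Ifitm1 and Ifitm2, below 0 in every clone liver, Ifi205 and Ifngr1, above 0 in every clone spleen, and Oas1a and Ifit3 as classical targets. Each runs 5′ to 3′ on the gene's strand, with matches in capitals. Ifitm1 lies on the plus strand (chr7:140967826-140968075), Ifitm2 on the minus strand (chr7:140955962-140956211), Ifi205 on the minus strand (chr1:174031756-174032005), Ifngr1 on the plus strand (chr10:19591699-19591948), Oas1a on the minus strand (chr5:120907526-120907775) and Ifit3 on the plus strand (chr19:34583279-34583528).
Ifitm1: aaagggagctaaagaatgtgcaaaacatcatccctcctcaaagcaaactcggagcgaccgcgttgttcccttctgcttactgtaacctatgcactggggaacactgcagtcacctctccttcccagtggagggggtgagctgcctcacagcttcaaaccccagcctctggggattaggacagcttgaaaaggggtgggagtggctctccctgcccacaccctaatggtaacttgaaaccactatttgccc
Ifitm2: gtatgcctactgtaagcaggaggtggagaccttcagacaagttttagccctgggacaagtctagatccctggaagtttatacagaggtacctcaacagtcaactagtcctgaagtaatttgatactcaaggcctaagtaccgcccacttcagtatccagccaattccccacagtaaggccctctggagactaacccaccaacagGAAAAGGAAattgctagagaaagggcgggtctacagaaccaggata
Ifi205: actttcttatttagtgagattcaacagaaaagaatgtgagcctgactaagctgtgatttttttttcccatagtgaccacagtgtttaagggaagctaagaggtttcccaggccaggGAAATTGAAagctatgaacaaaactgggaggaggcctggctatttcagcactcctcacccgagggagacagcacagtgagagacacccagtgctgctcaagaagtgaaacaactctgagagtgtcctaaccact
Ifngr1: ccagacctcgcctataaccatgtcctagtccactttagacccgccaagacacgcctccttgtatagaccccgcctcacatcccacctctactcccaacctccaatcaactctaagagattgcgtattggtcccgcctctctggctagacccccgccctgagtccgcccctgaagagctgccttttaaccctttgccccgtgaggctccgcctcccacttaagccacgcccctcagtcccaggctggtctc
Oas1a: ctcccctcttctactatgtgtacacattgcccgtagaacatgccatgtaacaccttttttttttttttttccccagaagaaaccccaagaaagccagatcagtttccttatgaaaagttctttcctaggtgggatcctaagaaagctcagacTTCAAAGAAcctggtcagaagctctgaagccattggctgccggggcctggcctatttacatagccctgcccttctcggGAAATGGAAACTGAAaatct
Ifit3: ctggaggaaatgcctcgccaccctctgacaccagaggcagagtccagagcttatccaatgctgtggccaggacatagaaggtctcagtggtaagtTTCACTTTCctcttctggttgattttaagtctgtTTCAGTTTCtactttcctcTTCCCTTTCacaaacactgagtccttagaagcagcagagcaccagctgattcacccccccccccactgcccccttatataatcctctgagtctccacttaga

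Ifit3 held 3 matches of the response element, 155, 121 and 102 bases before its start. Oas1a held 2 overlapping ones, 20 and 14 bases before the start, and a gamma-activated site 98 bases before it. Ifi205 held 1 match at 134 bases, with another after the start and outside the printed stretch, and Ifitm2 held 1 at 46 bases. Neither pattern occurred in the window of Ifitm1 or of Ifngr1. So of the printed pair below 0 in all 8 livers, and of the pair above 0 in all 8 spleens, 1 gene had a match of the response element and 1 had none.

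All values are given as log2 of a ratio, probably clone over pool since the titles name them in that order, and the other direction would exchange higher and lower throughout. The deposited ratios were taken to point this way on both dye orientations. That reading is not settled, because the mean ratios of both orientations correlated below 0 across probes, most in wildtype liver (-0.70), then wildtype spleen (-0.38), Dll1 spleen (-0.30) and Dll1 liver (-0.26). Over the interferon response genes, the 2 arrays of a clone gave the same sign for 21.1% of gene and mouse pairs in wildtype liver, 41.9% and 43.3% in wildtype and Dll1 spleen, and 57.0% in Dll1 liver. The comparisons of groups, genotypes and organs are therefore also given with the Cy3 arrays turned in sign. Counts by mouse, further pathway genes, cell type markers, correlations with Dhx58 and the split by promoter are given as deposited only. A liver array lacked 74 to 288 values and a spleen array 270 to 2966. The median SD between mice over all features was 0.09 in wildtype liver and 0.11 in Dll1 liver, against 0.28 and 0.45 in the spleens. Gene names also rest on an offset of 11 rows that was found from the data, under which probe pairs of 1 gene correlated at 0.022 on average against 0.000407 without it. In the interferon response genes the 2 probes of Irf8 correlated at 0.75 over the 16 organ values, and the other pairs of probes at -0.37 to 0.04.

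No test of the genes as a group was made. In liver their median log2 ratio was -0.00881 in wildtype liver, where 23 of 38 lay below 0, and 0.00262 in Dll1 liver, where 18 of 38 did. Above 0 lay 39.5% and 52.6% of the genes. Over all 17020 features tested the medians were 0.00747 and -0.00325, with 54.8% and 48.3% above 0. In spleen the genes lay higher, with a median of 0.13 in wildtype clones (26 of 37 above 0, or 70.3%) and 0.11 in Dll1 clones (24 of 37, or 64.9%). The medians of all 16956 features were 0.0109 and 0.00569, with 52.7% and 50.7% above 0. By mouse, the median of the genes ran from 0.08 to 0.15 in the 4 wildtype spleens, and from -0.10 to 0.26 in the 4 Dll1 spleens, where mouse 3 alone lay below 0. Without Dll1 mouse 1 the median of the genes in Dll1 spleen was 0.0372. Irf2 was the gene not tested in spleen, with values in 2 of 4 Dll1 spleens.

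**Figure D1:**
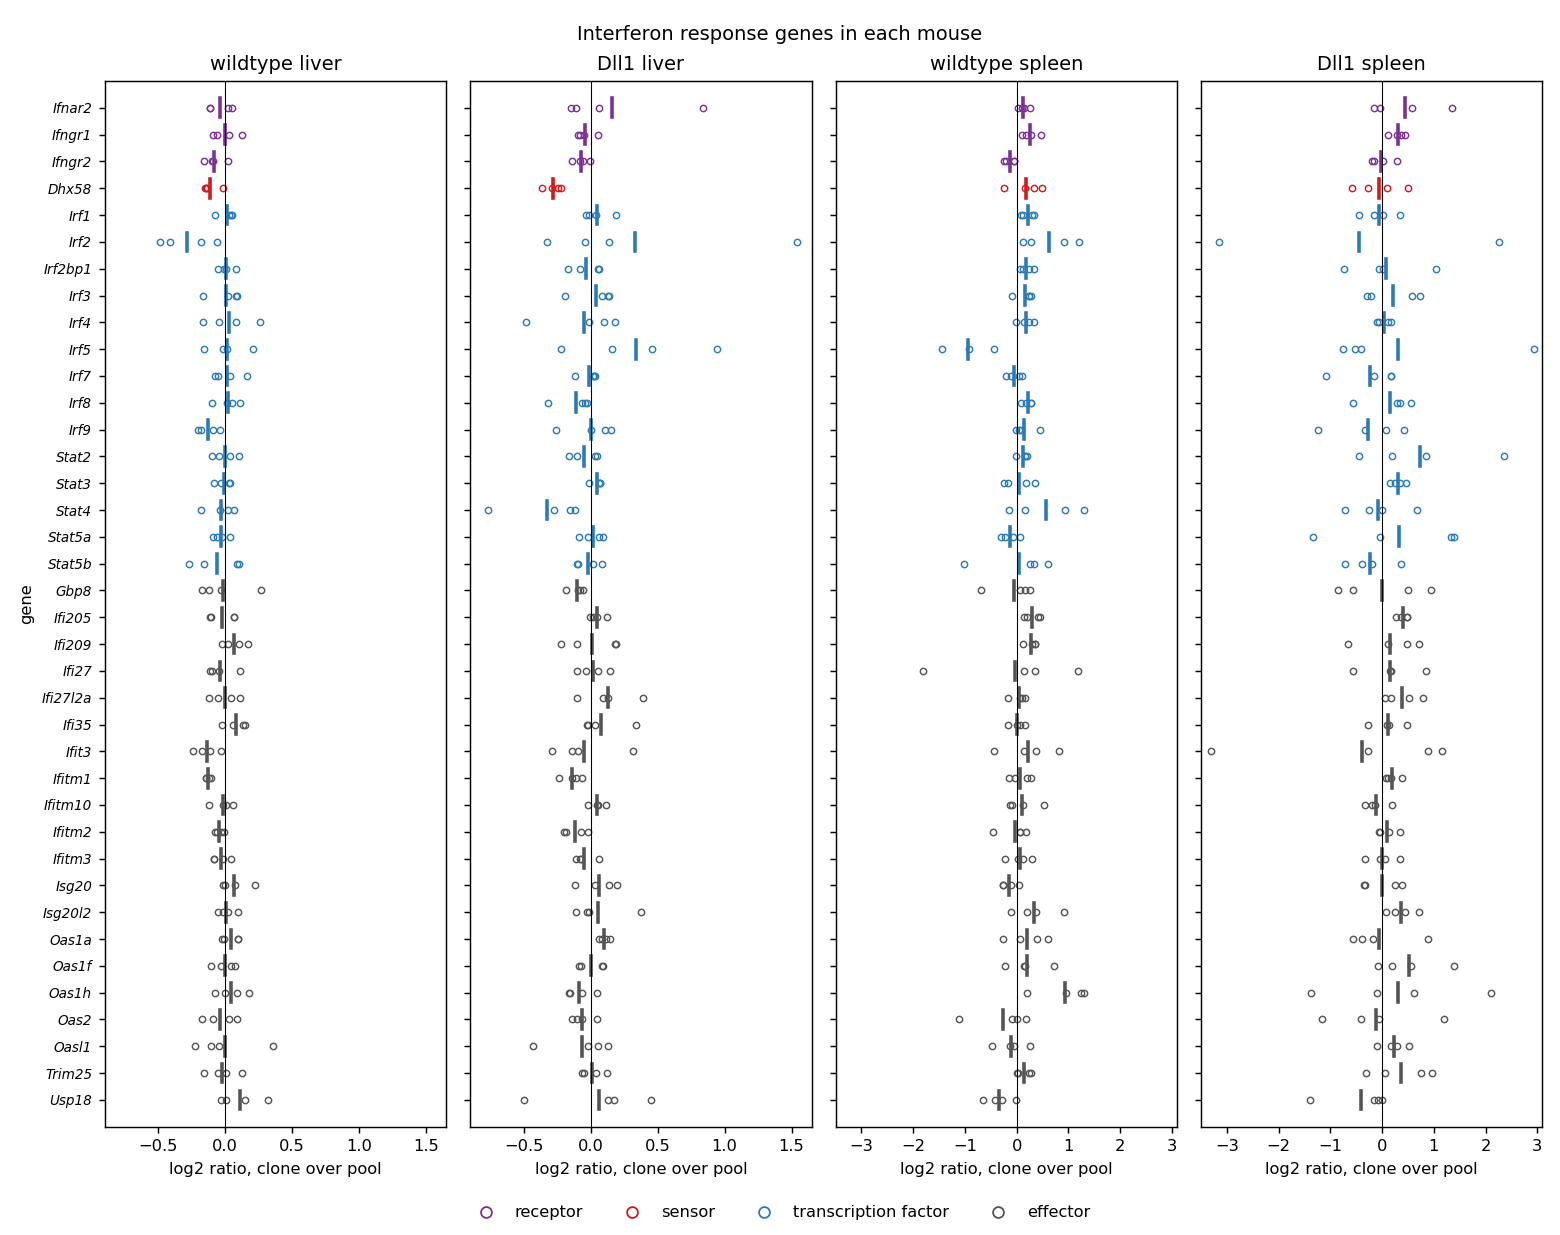
Log2 ratios of clone over pool of the 38 interferon response genes, 1 point per mouse and 1 bar per group mean, coloured by role, with a wider axis for the spleens. Dhx58, Ifitm1 and Ifitm2 lie left of 0 in all 8 livers, and Ifi205 and Ifngr1 right of 0 in all 8 spleens.

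**Figure D2:**
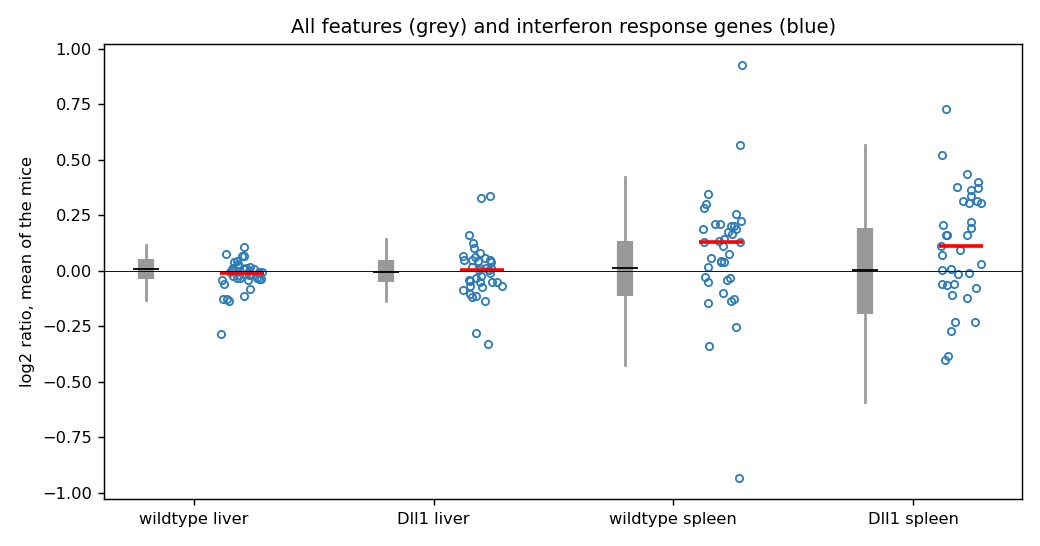
Group means of the interferon response genes (blue circles, red bar at their median) beside all features tested (grey, box from the 25th to the 75th percentile, line from the 5th to the 95th, black bar at the median), on the log2 ratio scale. The red bars lie near 0 in liver and at 0.13 and 0.11 in the spleens.

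Few single genes stood out. At an adjusted p under 0.05 (limma, Benjamini-Hochberg over all features), 0 of the 38 genes passed in wildtype liver, where 0.0705% of all features did, and 0 passed in Dll1 liver, wildtype spleen or Dll1 spleen, where 0% of all features did. At an unadjusted p under 0.05, 2 genes passed in wildtype liver against 8.84% of all features, and 6 in Dll1 liver against 9.15%. In spleen 1 passed in wildtype clones against 3.4% of all features, and 3 in Dll1 clones against 9.98%. As shares of the genes, these were 5.26%, 15.8%, 2.7% and 8.11%.

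Agreement of the 4 mice of a group was also counted. Below 0 in every mouse lay 6 genes in wildtype liver (15.8% of the 38, against 9.02% of all features) and 7 in Dll1 liver (18.4% against 9.81%). Above 0 in every mouse lay 0 in wildtype liver (all features 11.6%) and 1 in Dll1 liver (all features 5.94%). In spleen the counts turned the other way, with 9 genes above 0 in every wildtype spleen (24.3% against 8.95%) and 6 in every Dll1 spleen (16.2% against 8.39%). There 3 lay below 0 in every wildtype spleen (all features 7.12%) and 0 in every Dll1 spleen (all features 7.49%). Over both genotypes, 3 genes lay below 0 in all 8 livers (7.89% against 1.72%) and 0 above it (all features 1.16%), while 2 lay above 0 in all 8 spleens (5.41% against 1.45%) and 0 below it (all features 0.973%).

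The sensor Dhx58 encodes LGP2, a relative of RIG-I that binds viral RNA and modulates signalling by the other sensors. Its log2 ratios in Dll1 liver were -0.36, -0.22, -0.24 and -0.29 in mice 1 to 4. In wildtype liver they were -0.14, -0.15, -0.0185 and -0.14. All 8 livers lay below the pool, every Dll1 liver lay lower than every wildtype liver, and wildtype mouse 3 lay nearest to 0. Over both genotypes Dhx58 fell by 0.20 (SE 0.03, adjusted p = 0.0492 by limma), the single pass among the 38 genes in a comparison in which 0.112% of all features passed. Within a genotype it did not pass, at -0.28 (SE 0.04, adjusted p = 0.218) in Dll1 and -0.11 (SE 0.04, adjusted p = 0.477) in wildtype liver.

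The call on Dhx58 was narrow. It was lost without any 1 of the 8 mice, with adjusted p from 0.0624 without Dll1 mouse 2 to 0.222 without wildtype mouse 2, and after centring (0.0726) or scaling (0.107) of the arrays, while the value stayed between -0.18 and -0.21 without a mouse. In 1 fit of both organs it was lost (adjusted p = 1, with 0% of all features passing). There both organs share 1 estimate of the spread, and the spleens spread more, so the spread in liver is overstated. The call was kept in a fit of single arrays with a dye term (adjusted p = 0.000797), in which 1.25% of all features passed. In it the arrays of a mouse had a fitted correlation of -0.32. That fit also called Dhx58 in Dll1 liver alone (adjusted p = 0.00587), where 0.0705% of all features passed. On single arrays, all 8 of Dll1 liver lay below 0, between -0.36 and -0.21 on Cy5 arrays of the clone and between -0.41 and -0.15 on Cy3 arrays, and 7 of 8 of wildtype liver did. Because both orientations lay on the same side, turning the Cy3 arrays left almost nothing, 0.0005 over both genotypes (adjusted p = 0.992). In spleen Dhx58 had no common direction, at 0.50, -0.27, 0.10 and -0.59 in Dll1 and 0.16, -0.24, 0.34 and 0.49 in wildtype mice, and the groups overlapped.

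**Figure D3:**
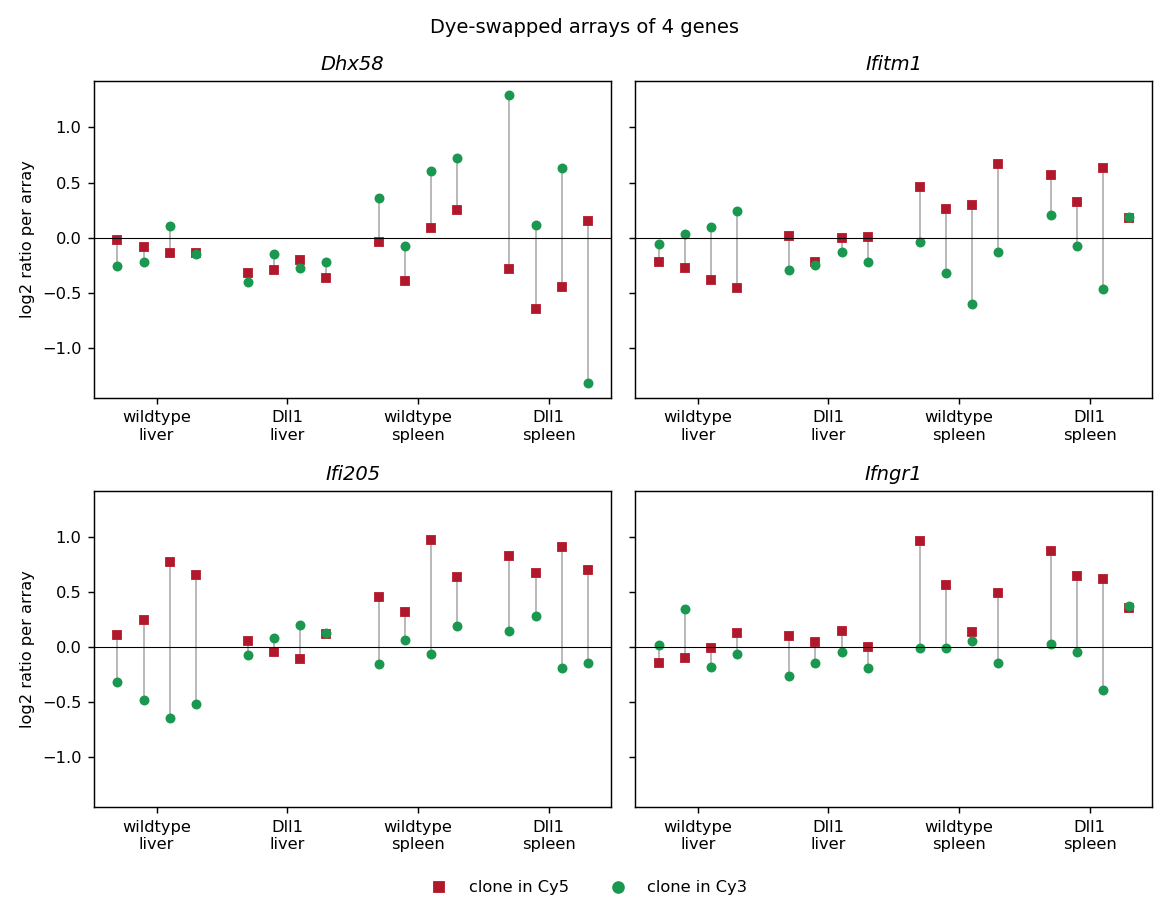
Log2 ratio on every single array for Dhx58, Ifitm1, Ifi205 and Ifngr1, with the clone in Cy5 (red squares) or Cy3 (green circles) and a grey line joining the 2 arrays of a mouse, in mouse order within each group. Both dyes lie below 0 for Dhx58 in Dll1 liver, while Ifi205 lies higher in Cy5 than in Cy3 in all 8 spleens and Ifngr1 in 7 of 8.

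Among the receptors, Ifngr1, the ligand-binding chain of the interferon gamma receptor, lay above the pool in every spleen. Its log2 ratios were 0.47, 0.28, 0.10 and 0.18 in wildtype spleens and 0.45, 0.30, 0.12 and 0.36 in Dll1 spleens. The 2 genotypes overlapped fully. The mean over both was 0.28 (SE 0.08), which did not pass (limma, adjusted p = 0.551). With the Cy3 arrays turned it was 0.30 (SE 0.09, adjusted p = 0.0649). In liver Ifngr1 lay on both sides of 0, at -0.06, 0.13, -0.09 and 0.03 in wildtype and -0.08, -0.05, 0.05 and -0.09 in Dll1 clones.

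Ifngr2, the second chain of that receptor, which carries Jak2, showed no such pattern. It lay below 0 in all 4 wildtype spleens, at -0.24, -0.06, -0.21 and -0.04, and at -0.19, 0.28, -0.16 and 0.01 in the Dll1 spleens. In liver it lay at -0.10, -0.10, -0.16 and 0.02 in wildtype and -0.06, -0.08, -0.14 and -0.01 in Dll1 clones, so 7 of 8 livers were below the pool (mean -0.08, SE 0.03, adjusted p = 0.330 by limma). Ifnar2, a chain of the type I receptor, had 3 probes that did not move together, and mean values of -0.04 in wildtype liver, 0.16 in Dll1 liver, 0.13 in wildtype spleen and 0.44 in Dll1 spleen.

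The Irf and Stat genes, which carry the signal to DNA, had medians of 0.00147 in wildtype liver and -0.00469 in Dll1 liver, each with 7 of 14 above 0. In spleen 10 of 13 lay above 0 in wildtype clones (median 0.14) and 8 of 13 in Dll1 clones (median 0.07). None passed in any of these 4 groups at the adjusted threshold by limma, and at the unadjusted one Irf5 (higher) and Stat4 (lower) did, both in Dll1 liver.

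Stat2 and Irf9, partners in the complex that binds the response element, did not move together. Stat2 lay at -0.05, 0.10, -0.10 and 0.03 in wildtype liver, and at -0.16, 0.05, -0.10 and 0.03 in Dll1 liver. In spleen Stat2 lay at -0.01, 0.17, 0.16 and 0.20 in wildtype clones and 0.85, 0.18, 2.35 and -0.45 in Dll1 clones, where mouse 3 was far above the rest. The value of that mouse came from its Cy3 array alone. Irf9 was below 0 in all 4 wildtype livers, at -0.04, -0.18, -0.20 and -0.09, and mixed in Dll1 liver, at 0.0045, 0.15, -0.26 and 0.11. In spleen Irf9 lay at 0.09, 0.05, 0.46 and -0.02 in wildtype and 0.07, -0.33, -1.24 and 0.42 in Dll1 clones. There mice 2 and 3 had a value in Cy3 alone, and in Cy3 every Dll1 spleen lay below 0. Neither gene passed in a group, with adjusted p of at least 0.533 by limma.

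Irf7, the main amplifier of type I interferon production, stayed near 0 in liver only as the average of dyes with opposite signs. It lay at -0.08, -0.05, 0.16 and 0.03 in wildtype liver, and at 0.03, 0.02, -0.12 and 0.03 in Dll1 liver. In every liver Irf7 lay above 0 with the clone in Cy5, between 0.05 and 0.49, and below 0 in Cy3, between -0.38 and -0.08. In spleen it lay at -0.10, 0.10, -0.21 and 0.04 in wildtype and 0.17, 0.17, -1.09 and -0.16 in Dll1 clones. Dll1 mouse 3 stood low, but its value came from the Cy3 array alone, and in Cy3 every Dll1 spleen lay below 0. Means were 0.02, -0.01, -0.04 and -0.23 in these groups, in the order wildtype liver, Dll1 liver, wildtype spleen and Dll1 spleen.

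Stat4, which signals for interleukin 12 and type I interferon in lymphocytes, lay below 0 in every Dll1 liver, at -0.12, -0.77, -0.15 and -0.27 (mean -0.33, SE 0.10, adjusted p = 0.484 by limma), and at 0.07, 0.02, -0.04 and -0.18 in wildtype liver. Of these Dll1 livers, mouse 2 had Stat4 at 0.315 in Cy5 but at -1.85 in Cy3, and the others lay below 0 in both. In wildtype spleen Stat4 lay at -0.15, 0.17, 1.31 and 0.94. Irf5, an activator of inflammatory cytokine genes in macrophages, lay at 0.16, -0.22, 0.95 and 0.46 in Dll1 liver and -0.01, 0.01, 0.21 and -0.16 in wildtype liver. It lay below 0 in the 3 wildtype spleens with a value, at -0.43, -1.45 and -0.93, with mouse 3 missing. These low values came mainly from Cy3: mouse 1 lay at 0.343 in Cy5 and -1.2 in Cy3, and mouse 2 at -0.273 and -2.63. Mouse 4 had a value in Cy3 alone. In Dll1 spleen 1 mouse decided the mean of Irf5, 0.32: mouse 1 lay at 2.94 and the others between -0.76 and -0.40. Irf2, a repressor of interferon targets, was below 0 in every wildtype liver, at -0.06, -0.41, -0.49 and -0.18, and at -0.33, 0.14, 1.54 and -0.04 in Dll1 liver. Irf8, a factor of myeloid and B cells and the 1 gene whose probes moved together, lay above 0 in every wildtype spleen (0.28, 0.19, 0.09 and 0.28) and in 3 of 4 Dll1 spleens.

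Of the effectors in liver, Ifitm1 and Ifitm2 lay below 0 in every clone. They are membrane proteins that hinder the entry of enveloped viruses. Ifitm1 lay at -0.14, -0.12, -0.14 and -0.11 in wildtype liver, and at -0.14, -0.23, -0.07 and -0.11 in Dll1 liver. All 8 livers were below the pool within a narrow range, and the genotypes overlapped. Its mean of -0.13 (SE 0.03) did not pass (adjusted p = 0.146 by limma). Its arrays did not agree between dyes: in wildtype liver it lay between -0.45 and -0.22 with the clone in Cy5 and between -0.06 and 0.24 in Cy3. With the Cy3 arrays turned it lay at -0.21 in wildtype liver, which passed (adjusted p = 0.00608 by limma), as did 53.9% of all features. In Dll1 liver it then lay at 0.09 (adjusted p = 0.311). The turned difference of the genotypes, 0.29, passed (adjusted p = 0.0103 by limma), as did 40.3% of all features. The turned mean over both was -0.06 (SE 0.03, adjusted p = 0.188).

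Ifitm2, whose promoter held a response element, lay at -0.0080, -0.03, -0.07 and -0.06 in wildtype liver, and at -0.02, -0.07, -0.18 and -0.20 in Dll1 liver, again below the pool in all 8 (mean -0.08, SE 0.03, adjusted p = 0.322 by limma). Ifitm3, which held 2 such elements after its start, lay below 0 in 3 of 4 livers of each genotype, with means of -0.03 and -0.05. Ifitm10 lay at -0.02 in wildtype and 0.05 in Dll1 liver. In spleen Ifitm1, Ifitm2 and Ifitm3 had means of 0.07, -0.03 and 0.06 in wildtype and 0.19, 0.09 and 0.0089 in Dll1 clones. Ifitm2 turned to 0.08 in liver with the Cy3 arrays turned, and there it passed (adjusted p = 0.0432 by limma), as did 41.6% of all features. Its direction therefore depends on the reading.

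Oas1a makes the signal molecule that activates the RNase of this pathway. It lay above 0 in every Dll1 liver, at 0.11, 0.06, 0.15 and 0.09, and at -0.01, 0.10, 0.10 and -0.02 in wildtype liver. Its mean over both was 0.07 (SE 0.03, adjusted p = 0.329 by limma). In spleen it lay at 0.61, 0.40, -0.26 and 0.06 in wildtype and -0.56, -0.39, 0.89 and -0.17 in Dll1 clones. Its relative Oas1h lay above 0 in every wildtype spleen, at 1.31, 0.96, 1.24 and 0.21, but at 2.10, 0.63, -1.38 and -0.09 in Dll1 spleens.

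Ifit3, which binds viral RNA with other Ifit proteins and held 3 response elements, lay below 0 in every wildtype liver, at -0.24, -0.17, -0.03 and -0.11. In Dll1 liver it lay at -0.14, -0.29, -0.10 and 0.32. In spleen it lay at 0.14, -0.44, 0.82 and 0.37 in wildtype and 1.15, -3.30, 0.89 and -0.28 in Dll1 clones, where mouse 2 stood far below. Of these Dll1 spleens, mouse 1 had a value in Cy5 alone, and mice 2 and 3 in Cy3 alone. None of these means passed, with adjusted p of at least 0.673 by limma. Isg20, an exonuclease of RNA, lay at 0.22, -0.0045, 0.07 and -0.01 in wildtype liver. Ifi35, which is induced by interferon and binds other signalling proteins, lay at -0.03, 0.06, 0.14 and 0.13 in wildtype liver, and in Dll1 liver its mean of 0.08 rested on mouse 3 at 0.34.

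In spleen Ifi205, a nuclear protein of the HIN-200 family, had the most even values. It lay at 0.15, 0.19, 0.45 and 0.41 in wildtype spleens and 0.48, 0.48, 0.36 and 0.28 in Dll1 spleens. All 8 lay above the pool and the genotypes overlapped. Ifi205, like the Oas1 and Ifitm genes, has close relatives in the genome, and binding of their RNA to its probe was not tested. The mean was 0.35 (SE 0.08) and did not pass (adjusted p = 0.550 by limma). In liver Ifi205 lay at -0.10, -0.12, 0.07 and 0.07 in wildtype and -0.0060, 0.02, 0.05 and 0.12 in Dll1 clones. By dye, the wildtype livers lay between 0.11 and 0.78 in Cy5 but between -0.64 and -0.32 in Cy3, without overlap.

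The spleen values of Ifi205 and Ifngr1 came mainly from the arrays with the clone in Cy5. There Ifi205 lay between 0.32 and 0.97 and Ifngr1 between 0.14 and 0.96, while in Cy3 Ifi205 lay between -0.19 and 0.29 and Ifngr1 between -0.39 and 0.37. In Cy3, 4 of 8 values of Ifi205 and 5 of 8 of Ifngr1 lay below 0. Turned, Ifi205 lay at 0.34 (SE 0.08, adjusted p = 0.0339 by limma), which passed, as did 11.7% of all features. Both genes also passed in 1 fit of both organs, in which liver and spleen share 1 estimate of the spread, with adjusted p of 0.00631 for Ifi205 and 0.0176 for Ifngr1, where 3.53% of all features passed. In that fit the same genes passed in Dll1 spleen alone, with adjusted p of 0.012 and 0.0395, where 5.62% of all features passed. The spleens spread more between mice (median SD 0.28 and 0.45) than the livers (0.09 and 0.11). The shared estimate thus understates the spread in spleen, and these passes add no support. In the fit of single arrays Ifi205 passed (adjusted p = 0.0456), where 0.366% of all features passed.

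Usp18, which removes Isg15 from proteins and damps the type I receptor, had a mean below 0 in spleen, but its arrays did not agree between dyes. It lay at -0.01, -0.28, -0.64 and -0.42 in wildtype and -0.15, 0.0085, -1.39 and -0.08 in Dll1 spleens, so that 7 of 8 lay below the pool (mean -0.37, SE 0.17, adjusted p = 0.662 by limma). Dll1 mouse 3 stood alone at -1.39, with the other Dll1 spleens between -0.15 and 0.0085. With the clone in Cy3 every spleen lay below 0, between -2.19 and -0.21 in wildtype and between -1.72 and -0.50 in Dll1 clones. In Cy5 Usp18 lay on both sides of 0, between -0.20 and 0.91 in wildtype and between -2.28 and 1.42 in Dll1 spleens. In liver Usp18 lay at 0.32, -0.03, 0.15 and 0.0045 in wildtype and 0.45, 0.17, -0.49 and 0.13 in Dll1 clones. Ifi27l2a, a small mitochondrial protein strongly induced by type I interferon, lay above 0 in every Dll1 spleen, at 0.05, 0.52, 0.79 and 0.17, and at 0.07, -0.18, 0.16 and 0.11 in wildtype spleens. In Dll1 liver it lay at 0.13, 0.09, 0.39 and -0.10. Isg20l2 lay above the pool in 7 of 8 spleens, but its 2 probes differed, at 0.68 and 0.01 in wildtype spleen.

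Taking both genotypes together, 1 of 38 genes passed in liver and 0 of 37 in spleen, where 0% of all features passed. At an unadjusted p under 0.05 the counts were 6 genes in liver against 12.9% of all features, 1 higher and 5 lower, and 3 genes in spleen against 7.58%, all higher. The lower genes in liver were Dhx58, Ifitm1, Ifitm2, Ifngr2 and Stat4, and the higher one was Oas1a. In spleen they were Ifi205, Ifngr1 and Isg20l2. As shares of the genes these were 15.8% and 8.11%, near the background of the same organ.

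The shift was next compared between genotypes, Dll1 minus wildtype. In liver 0 of 38 genes passed, as did 0% of all features, and 1 gene against 4.87% of all features had an unadjusted p under 0.05. This was Dhx58, lower by 0.17 in Dll1 clones (SE 0.06, adjusted p = 0.935 by limma). Other differences were 0.61 for Irf2 (SE 0.34), 0.32 for Irf5 (SE 0.21) and -0.29 for Stat4 (SE 0.13). In spleen 0 of 37 passed at the adjusted threshold (all features 0%) and 0 at the unadjusted one (all features 4.52%). The differences with the smallest p were 0.34 for Ifi27l2a (SE 0.21), 0.32 for Oasl1 (SE 0.22), -0.64 for Stat4 (SE 0.40) and -0.27 for Irf1 (SE 0.21). Medians of the genes were 0.00638 in liver and 0.05 in spleen, against -0.00987 and -0.00384 over all features. Each genotype had its own pool, so that a genotype difference and a pool difference cannot be told apart.

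The organs of the same clones were compared as liver minus spleen. The median of the genes was -0.15 in both genotypes, with 28 of 38 below 0 in wildtype and 26 of 37 in Dll1 clones, against medians of -0.0090 and -0.0105 over all features. Passing genes numbered 0 in either genotype, as did 0% of all features. At an unadjusted p under 0.05, 7 genes in wildtype clones (18.4% against 9.43%) and 3 in Dll1 clones (8.11% against 7.62%) were counted. With the mouse as a block, which pairs the organs of a clone, these unadjusted counts were 5 and 0, and the share of all features was not counted. In wildtype clones the 4 with the smallest p were Irf5 at 0.95 (SE 0.23), Irf2 at -0.91 (SE 0.25), Oas1h at -0.88 (SE 0.23) and Usp18 at 0.45 (SE 0.15), with adjusted p from 0.268 to 0.403 by limma. In Dll1 clones Ifi205 lay at -0.35 (SE 0.12), Ifngr1 at -0.35 (SE 0.13) and Ifitm1 at -0.33 (SE 0.13), and none passed. Ifitm10 lay at 0.17 (SE 0.15) and Usp18 at 0.47 (SE 0.34). Irf5 turned to -0.67 with the Cy3 arrays turned.

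Turning the Cy3 arrays changed most of what can be said of liver. In wildtype liver 23 of 38 genes then passed (60.5%), 13 higher and 10 lower, where 53.9% of all features did. The lowest were Ifi35 at -0.63 (SE 0.05), Trim25, a ubiquitin ligase that activates RIG-I, at -0.53 (SE 0.05), and Ifitm3 at -0.49 (SE 0.05). The highest were Ifi205 at 0.47 (SE 0.07), Irf9 at 0.43 (SE 0.09), Oas1f at 0.35 (SE 0.05) and Ifngr2 at 0.34 (SE 0.05). For Ifi35 the arrays lay between -0.61 and -0.51 in Cy5 and between 0.46 and 0.88 in Cy3 in all 4 wildtype mice, and the same split occurred in every spleen. Trim25 split in the same way in wildtype liver, between -0.61 and -0.50 in Cy5 but between 0.29 and 0.75 in Cy3, and in Dll1 liver it was between 0.03 and 0.13 in Cy5 and between -0.26 and 0.12 in Cy3.

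In the remaining comparisons the turned reading gave fewer calls among the genes. In Dll1 liver 1 gene passed (Ifi27l2a at -0.28, against 4.54% of all features), in wildtype spleen 0 (all features 0.95%) and in Dll1 spleen 1 (Ifi35 at -1.02, against 4.36%). Over both genotypes 14 passed in liver (all features 41.6%) and 6 in spleen (all features 11.7%): Ifi205, Irf4 and Irf9 higher, and Ifi27l2a, Ifi35 and Ifitm3 lower. Between genotypes 18 passed in liver (all features 40.3%) and 0 in spleen (all features 0%). Between organs 8 passed in wildtype clones (all features 20.6%) and 0 in Dll1 clones (all features 0%). The medians of the genes were 0.10 in wildtype liver, 0.0229 in Dll1 liver, 0.19 in wildtype spleen and 0.12 in Dll1 spleen. Over all features the medians were 0.0409, 0.0234, 0.0614 and -0.00819 in the same order. The genes above 0 were 27 of 37 in wildtype spleen and 20 of 37 in Dll1 spleen, where 6 were higher and 7 lower at an unadjusted p under 0.05. The shares of all features above 0 or under that threshold were not counted in this reading, so these counts have no background. The sign of single genes differed between readings for 13 of 37 in wildtype spleen, 20 of 37 in Dll1 spleen, 18 of 38 in Dll1 liver and 24 of 38 in wildtype liver.

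**Figure D4:**
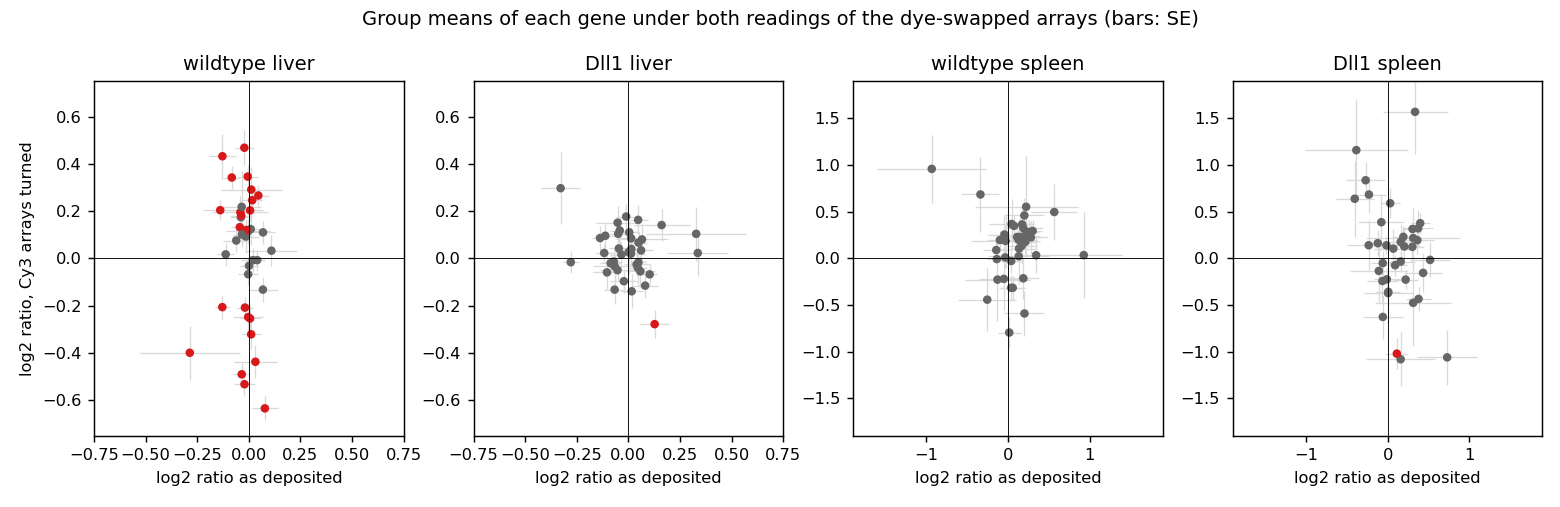
Group mean of each interferon response gene as deposited (x axis) and with the Cy3 arrays turned in sign (y axis), both log2 ratios, with SE bars and red points where the turned value passed at an adjusted p under 0.05. In wildtype liver 23 of 38 genes are red and spread along the y axis, against 1 red gene each in Dll1 liver and Dll1 spleen and 0 in wildtype spleen.

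Of 64 further genes of the pathway, such as kinases of the receptors, antigen processing genes and induced chemokines, 37 were tested in liver and 38 in spleen. None passed in any group by limma. In liver 22 of 37 lay below 0 in wildtype clones and 23 in Dll1 clones (medians -0.0179 and -0.0139). In spleen 24 of 38 lay above 0 in wildtype and 27 in Dll1 clones (medians 0.06 and 0.08). Over all features, 54.8% and 48.3% lay above 0 in wildtype and Dll1 liver, and 52.7% and 50.7% in the spleens. At an unadjusted p under 0.05, 1 was higher and 3 were lower in wildtype liver, and 2 were higher and 2 lower in Dll1 liver. In spleen 3 were higher in wildtype clones, and 2 were higher and 3 lower in Dll1 clones. Of all features, 8.84%, 9.15%, 3.4% and 9.98% had such a p in these groups, in the same order.

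Markers of cell types were read beside these values, and in bulk tissue fewer cells of a type and less RNA per cell cannot be told apart. In spleen, genes shared by all leukocytes lay above 0, 5 of 5 in both genotypes, at 0.27 to 0.53 in wildtype and 0.17 to 0.73 in Dll1 clones. Red cell genes lay below 0, 5 of 5 in both, with medians of -0.64 and -0.76, and the median of the neutrophil genes was -0.56 for Dll1 spleen (6 of 7 below 0) but 0.04 for wildtype spleen (5 of 7 above 0). Over the mice, the mean of the leukocyte genes ran from 0.18 to 0.44 in wildtype and from 0.20 to 0.41 in Dll1 spleens. By median 7 of 8 spleens lay above 0, with Dll1 mouse 3 at -0.06, though the mean of that mouse was 0.20. Among cells that make or answer interferon, macrophage genes lay above 0 for 4 of 4 in wildtype and 3 of 4 in Dll1 spleen (medians 0.10 and 0.18), and T cell genes for 3 of 5 in both (medians 0.08 and 0.26). B cell genes lay above 0 for 3 of 3 and 2 of 3 (medians 0.18 and 0.13). Of the NK cell genes 2 were measured, 0 of them above 0 in wildtype spleen (median -0.04) and both in Dll1 spleen (median 0.08). Of the plasmacytoid dendritic cell genes 2 were measured, above 0 in wildtype spleen (median 0.16) and below it in Dll1 spleen (median -0.05). The part of these shifts in the higher spleen values of the interferon response genes was not tested. In liver, hepatocyte genes lay below 0, 6 of 6 in both genotypes, with medians of -0.27 in wildtype and -0.08 in Dll1 clones, and Dhx58 lay at -0.11 and -0.28 in the same groups. Their part in the value of Dhx58 was not tested.

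Dhx58 had the smallest p in any group, and the genes with the most similar values were sought over the 16 organ values of the 8 mice. These include both organs, which differ in spread, so that the coefficients are a description. Among the interferon response genes the highest Pearson correlations were 0.58 with Isg20l2, 0.55 with Ifi27, 0.52 with Ifit3, 0.51 with Ifi205 and 0.46 with Ifitm1. Within the 8 livers alone all 5 were below 0, from -0.23 to -0.05, so the likeness came from spleen and from the step between organs. Among other genes the highest were Ptpre at 0.86 and Pias3 at 0.84, followed by Plce1, Atxn2 and L3mbtl2 at 0.83, 0.82 and 0.82. Ptpre encodes a tyrosine phosphatase and Pias3 an inhibitor of Stat3, and within liver they correlated with Dhx58 at 0.74 and 0.64, against 0.46 for Plce1, 0.62 for Atxn2 and -0.47 for L3mbtl2.

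Genes with and without a response element in the promoter window were set side by side. In wildtype liver 8 of 9 genes with a match lay below 0 (median -0.03), against 10 of 23 without (median 0.00594). In Dll1 liver 5 of 9 and 10 of 23 lay below 0. In wildtype spleen 7 of 8 with a match and 17 of 23 without lay above 0 (medians 0.17 and 0.13), and in Dll1 spleen 5 of 8 and 16 of 23 (medians 0.05 and 0.16). The ranges overlapped in all 4 groups, from -0.29 to 0.04 with a match and -0.13 to 0.08 without in wildtype liver. This split was made on the deposited signs only. With the Cy3 arrays turned, 24 of the 38 genes changed sign in wildtype liver, so the split there depends on the reading.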

How the data were processed

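Liver and spleen RNA of 8 clones was hybridised on 2-colour arrays, 32 in all. The deposited table gives 1 log2 ratio per probe and array. How these were normalized and filtered: not given in the sources used here. Base 2 was read from the values. The precision is limited by the number of clones and by the pool, which is 1 mixture for a whole group.

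Values above 9 in size (1183 constants) were set to missing. Each of 20794 rows was named by the platform's probe 11 places earlier, which named 12760 rows. All 12771 platform probes with a gene have 1 symbol. Dye-swapped arrays were averaged per mouse and probes per gene. Features with values in at least 3 mice of each group entered a limma (version 3.58.1, R 4.3.3) lmFit and eBayes fit of both genotypes of an organ, or of both organs of a genotype, with p-values adjusted by Benjamini-Hochberg over all features and a threshold of 0.05. The fit was tested on simulated data. P-values measure the spread between clones only, since each pool is 1 sample without a spread of its own.

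Genes named are, per group, the 3 with the smallest p above and below 0, in other comparisons the 2 and 2, and preset genes of the pathway. Others named, such as Ifitm2, Isg20l2, Irf8, Trim25 and Oas1f, were chosen after their values were seen. The genes, lists and motifs were chosen with earlier results of these data known. Organs of a clone are paired by animal, per the labels, and their deviations correlated at -0.0113 to 0.0604. Alternatives covered the dye sign, constants, centring, scaling, filters, probe summary, fits and leaving out mice.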

Additional observations from a re-analysis of the deposited data

Results flagged for a closer look

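Of 150 sets of 4 mice (1 gene in 1 group), 9 held a mouse farther from the others than Dixon's limit, where chance gives about 1 in 20. In Dll1 liver, mouse 3 stood apart for Ifi35 (0.34, others -0.03 to 0.03), Irf3 (-0.19, others 0.08 to 0.13) and Irf7 (-0.12, others 0.02 to 0.03). In the same group mouse 2 stood apart for Irf8 (-0.32, others -0.06 to -0.02) and mouse 1 for Stat3 (-0.00875, others 0.06 to 0.07). In Dll1 spleen mouse 1 stood apart for Irf5 (2.94, others -0.76 to -0.40) and mouse 3 for Usp18 (-1.39, others -0.15 to 0.0085). In wildtype liver mouse 3 stood nearest to 0 for Dhx58 (-0.0185, others -0.15 to -0.14), and in wildtype spleen mouse 4 stood apart for Irf3 (-0.085, others 0.23 to 0.28).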

How the results depend on the processing

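With the Cy3 arrays turned in sign, the features passing became 9167 in wildtype liver, 772 in Dll1 liver, 161 in wildtype spleen, 740 in Dll1 spleen, 7079 and 1984 over both genotypes in liver and spleen, 6855 between genotypes in liver and 3508 between organs of wildtype clones. The interferon response genes passing became 23, 1, 0, 1, 14, 6, 18 and 8 in the same order, and moved medians were 0.0968 in wildtype liver, 0.187 in wildtype spleen, 0.0376 over both genotypes in liver, -0.0606 between genotypes in liver and -0.0481 between organs of wildtype clones. Named genes that changed sign and passed only under that setting were Ifi35 (-0.634), Ifngr2 (0.342), Irf9 (0.432) and Ifit3 (0.204) in wildtype liver. The others were Ifi27l2a (-0.278) in Dll1 liver, Ifi35 (-0.375) over both genotypes in liver, and Irf5 (-0.668) between organs of wildtype clones. Dhx58 over both genotypes in liver passed only as deposited and went to 5e-04. The count over both genotypes in liver went from 1 to 0 with constants kept, with centring, with scaling, with 2 mice required, with both organs in 1 fit, and with names read without the shift, and the cause was not tested. Scaling moved the medians to 0.0797 in wildtype spleen and -0.112 between organs of wildtype clones. Names without the shift moved them to 5e-04 in wildtype spleen, -0.0353 between genotypes in liver and 0.0108 between organs of wildtype clones. Without the 4 spleen arrays with most missing values, a choice made after seeing the data, they were 0.0943 and -0.109 in wildtype spleen and between organs of wildtype clones.

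The count was 2 in Dll1 spleen and 2 over both genotypes in spleen with both organs in 1 fit (all features 5.62% and 3.53%), and 1 in Dll1 liver and 1 over both genotypes in spleen with single arrays (all features 0.0705% and 0.366%). Without 1 mouse, the median of the genes in wildtype spleen ranged from 0.0897 to 0.153, and in Dll1 spleen from 0.0372 without mouse 1 to 0.139 without mouse 3, where scaling gave 0.0664. Features passing then ranged from 0 to 2 in wildtype liver, 0 to 1 in Dll1 liver and 9 to 28 over both genotypes in liver, where the genes passing were 0 in every case. With the mouse as a replicate block, 0 genes passed between organs in either genotype, and it changed no adjusted call. Genes at an unadjusted p under 0.05 went from 7 to 5 in wildtype and from 3 to 0 in Dll1 clones, without a count over all features.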
